A study of Arabidopsis thaliana with 24 samples.

Results

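The 12 arrays of water-treated (mock) Arabidopsis thaliana seedlings, 6 taken at 30 min and 6 at 3 h, were compared within genotype and set number, out of 24 arrays in the series. Water was the control for flg22, a fragment of bacterial flagellin by which plants detect bacteria, and the other 12 arrays held the flg22-treated seedlings. The mock groups were wild-type Col at 30 min, Col at 3 h, mpk11 at 30 min and mpk11 at 3 h, with 3 arrays each, numbered as sets 1 to 3. The line mpk11 (SALK049352) is 1 line with a T-DNA insertion in MPK11, a MAP kinase gene. Seedlings were 10 days old, were grown in MS medium with 12 h of light and 12 h of dark at 22 °C, and had been in fresh liquid medium in wells for 48 h before water was added. RNA was taken from leaves. The comparison shows what moved between the sampling times with no peptide added. The clock time of treatment is not given in the sources used here and no array of untreated seedlings was analysed here, so time since the water was added and time of day cannot be told apart.

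Many plant transcripts follow a daily rhythm set by the circadian clock and by light, so their levels can differ between times of day. Handling and transfer of seedlings can also induce transcripts within minutes, among them genes of calcium sensors and of zinc-finger and WRKY transcription factors. Heat shock proteins and their partners are chaperones that help other proteins fold. They are named for heat, although several of them are also produced in unstressed leaves.

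All values are the deposited log values, taken as log2, and each change is the value at 3 h less the value at 30 min. A probe was said to have changed where limma's adjusted p was under 0.05 over 576 probes, in a model with the set number as a block. A gene was listed for 181 of the probes and 395 are unnamed here. The 7 leaf markers and 5 root markers chosen as a check of the tissue had no named probe, so they could not check the label of leaf RNA. MPK11 had no named probe either. The medians of the arrays lay between 3.53 and 3.76 at 30 min and between 3.34 and 3.63 at 3 h, and within genotype and set the 3 h array was lower in 5 of 6 pairs, by 0.15 on average. Wild-type set 1 was the exception, higher at 3 h by 0.05. Spot background was not analysed here, so how far a low value stands above background is unknown, and the number of arrays limits the precision.

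A pair of set 1 arrays stood apart among the probes that changed most, as seen after the values were examined. Of the 24 probes that passed with a change of at least 1, the mpk11 array of set 1 at 30 min was the 30 min array farthest from the 3 h arrays for 13. The wild-type array of set 1 at 3 h was the 3 h array nearest to the 30 min arrays for 16. The effect of leaving out these arrays or set 1 is given with the count over both genotypes and with some of the main genes.

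Over both genotypes 149 of 576 probes changed, which is 25.9% of those tested. Of these, 119 were lower at 3 h (20.7%) and 30 were higher (5.21%), so 79.9% of the probes that passed were lower. The change had the same sign in all 6 pairs for 109 of the 149, 19 of them higher and 90 lower. The 6 arrays at 3 h did not overlap the 6 at 30 min for 9 higher and 49 lower probes. Without the mpk11 array of set 1 at 30 min 133 probes passed, without the wild-type array of set 1 at 3 h 139 passed, and without all of set 1 122 passed. Leaving out set 3 had the greatest effect on the count, with 89 probes passing. In whole-leaf RNA, fewer cells of a type and less RNA per cell cannot be told apart.

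The share of lower probes depended on the scaling of the arrays. With each array centred on its own median, which moved the median change over all probes by 0.15, 69 probes were higher and 73 lower. After quantile normalization, which moved the changes of single probes by a median of 0.12, 66 were higher and 84 lower. Of the 149 calls, 103 were shared with the centred values and 114 with the quantile values, and 0 reversed. Small falls are therefore tied to the deposited level of the arrays, while the genes that the naming rule chose and that are said to have risen or fallen passed under all 3 scalings unless stated otherwise.

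**Figure D1:**
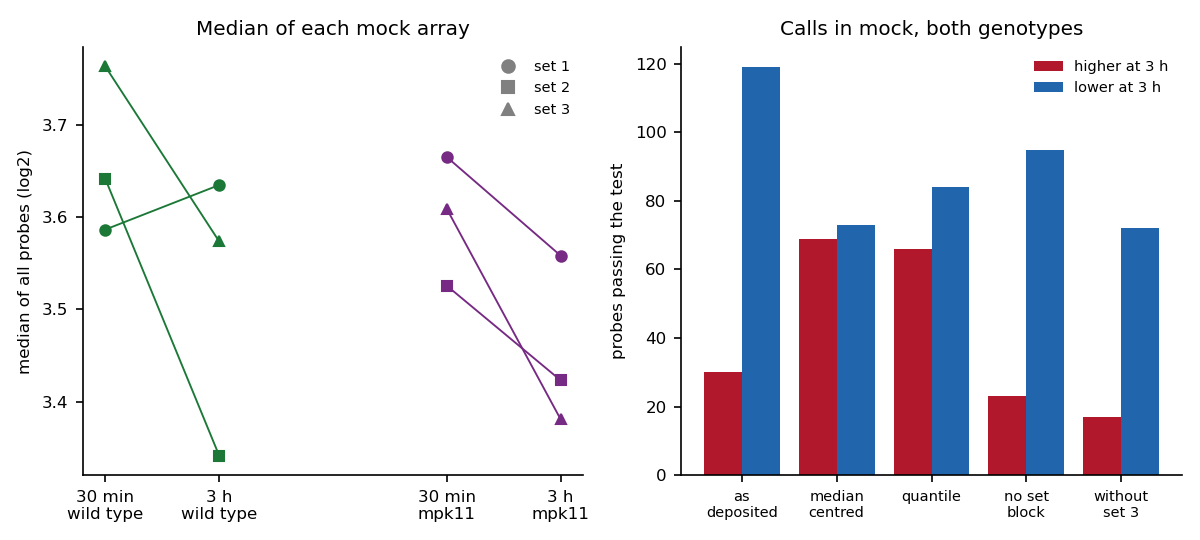
The left panel plots the median of all probes (log2) on each mock array, joined within genotype and set, and the right panel plots how many probes passed in each direction over both genotypes under the deposited values, 2 other scalings, no set block and without set 3. The median fell in 5 of 6 pairs, and lower probes outnumbered higher ones by 119 to 30 as deposited but by 73 to 69 after median centring.

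Of the 181 probes with a named gene 7 were higher and 29 were lower, beside 5.21% and 20.7% of all probes. Of the 4 higher probes with a change of at least 1, CCL was the named one. Among the 24 probes that changed by at least 1 in either direction, 20 are unnamed here, as are 395 of all 576.

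CCL (AT3G26740, CCR-LIKE) is a clock-controlled gene whose transcript's stability is itself under circadian control. In wild type it read 5.15, 5.45 and 5.40 at 30 min (sets 1, 2 and 3) and 5.85, 7.14 and 6.69 at 3 h. In mpk11 it read 3.81, 5.70 and 4.83 at 30 min and 6.88, 6.75 and 6.48 at 3 h. All 6 arrays at 3 h lay above all 6 at 30 min, and mpk11 of set 1 at 30 min was the lowest of the 12. CCL rose by 1.57 (SE 0.19, 95% interval 1.17 to 1.98; adjusted p = 2.16e-06). It rose by 1.39 without that lowest array, by 1.68 without the wild-type array of set 1 at 3 h, and by 1.42 without set 1. Of the 20 clock and clock-output genes chosen for a list, CCL was the 1 with a named probe, so the other members of the clock were not analysed here.

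Class III peroxidases, secreted enzymes that act on cell wall phenolics and on hydrogen peroxide, came next. AT2G37130 read 4.49, 4.66 and 4.61 in wild type at 30 min and 4.81, 5.58 and 5.61 at 3 h. In mpk11 it read 4.25, 4.56 and 4.40 at 30 min and 5.10, 5.65 and 5.12 at 3 h. The groups did not overlap, and the smallest step was that of wild-type set 1. AT2G37130 rose by 0.81 (SE 0.09; adjusted p = 8.74e-07), and by 0.90 without the wild-type array of set 1 at 3 h.

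AT5G19890, another peroxidase, rose by 0.80 (SE 0.22; adjusted p = 0.0111) with more spread. It went from 4.41, 3.59 and 3.10 to 4.67, 3.83 and 4.82 in wild type. In mpk11 it went from 4.26, 2.85 and 3.33 to 4.62, 4.29 and 4.13. Every pair rose, but the set 1 arrays at 30 min were as high as several at 3 h, so the groups overlapped. Without set 3 the rise was 0.57 and did not pass (adjusted p = 0.181). The third measured peroxidase, AT5G64120, differed by 0.24 (adjusted p = 0.193) as deposited and passed when each array was centred on its median (0.39, adjusted p = 0.016). The median change of the 3 peroxidases was 0.80, beside -0.06 over all probes.

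The remaining higher genes changed by less. AT4G22750, which encodes a protein S-acyltransferase, read 4.24, 4.69 and 4.81 in wild type at 30 min and 5.05, 4.73 and 5.17 at 3 h. In mpk11 it read 4.59, 4.69 and 4.42, then 4.73, 5.11 and 4.69. It was higher in 6 of 6 pairs, with overlapping groups, by 0.34 (SE 0.11; adjusted p = 0.0222), and it no longer passed in a model of the mock arrays alone (adjusted p = 0.0933), without set 1 (0.21), without set 3 (0.104) or without any of 5 single arrays (0.0618 to 0.0841). AT3G18050 rose by 0.27 with no overlap (adjusted p = 0.0196), and did not pass without the set block (0.0657), without any 1 of the sets (0.0997 to 0.13) or without either of 2 single arrays (0.0516 and 0.0583). The ribosomal protein gene AT2G37190 rose by 0.54 (adjusted p = 0.0133) and was higher in 5 of 6 pairs, and a subunit gene of the vacuolar proton pump, AT4G32530, rose by 0.33 in 4 of 6 pairs (adjusted p = 0.0362). Without set 3 the adjusted p of AT2G37190 was 0.175 and the change of AT4G32530 was 0.20 (adjusted p = 0.437). AT4G32530 also did not pass without set 1 (adjusted p = 0.147), with the mock arrays alone (0.0971) or without any of 6 single arrays (0.0761 to 0.139).

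**Figure D2:**
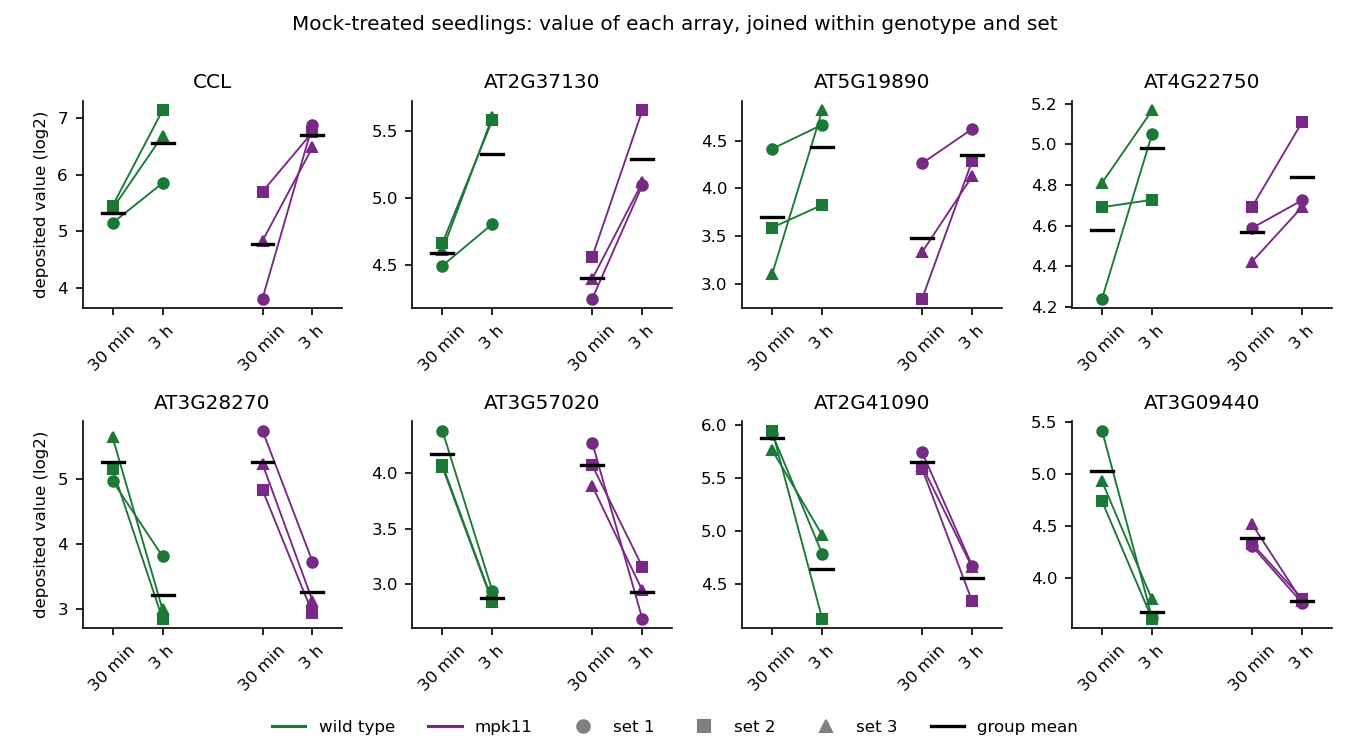
The deposited value (log2) of the 4 named genes that rose most (top row) and the 4 that fell most (bottom row) is plotted for each of the 12 mock arrays, with wild type in green, mpk11 in purple, a marker for each set, lines joining arrays of a set and black bars at group means. CCL, AT2G37130 and the 4 falling genes show no overlap between the times, while AT5G19890 and AT4G22750 overlap.

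The named gene that fell most was AT3G28270, of the At14a-like family of plasma membrane proteins. It read 4.97, 5.15 and 5.64 in wild type at 30 min and 3.81, 2.85 and 3.00 at 3 h. In mpk11 it read 5.74, 4.83 and 5.23, then 3.73, 2.94 and 3.13. The set 1 arrays were the highest at 3 h in both genotypes, still below every 30 min array. It fell by 2.02 (SE 0.16, 95% interval -2.36 to -1.68; adjusted p = 4.66e-09), with changes of -2.03 in wild type and -2.00 in mpk11.

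AT3G57020, a strictosidine synthase-like gene, went from 4.39, 4.08 and 4.06 to 2.94, 2.85 and 2.83 in wild type. In mpk11 it went from 4.27, 4.07 and 3.88 to 2.68, 3.15 and 2.94. No array at 3 h reached the 30 min range, and the fall was 1.23 (SE 0.10; adjusted p = 4.66e-09), a change of -1.08 without set 1.

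Calcium sensor genes were lower or did not pass. The calmodulin-like gene AT2G41090 went from 5.92, 5.95 and 5.76 to 4.79, 4.17 and 4.96 in wild type. In mpk11 it went from 5.74, 5.59 and 5.61 to 4.67, 4.34 and 4.66. It fell by 1.16 (SE 0.11; adjusted p = 2.60e-08) with no overlap. The EF-hand gene AT4G27280 fell by 0.52 (adjusted p = 0.00475, and 0.123 without set 3), and AT2G41410 fell by 0.34 (adjusted p = 0.0176), a call lost after median centring (adjusted p = 0.181) and quantile normalization (0.109), without set 2 (0.109), without set 3 (0.127) and without any of 3 single arrays (0.0567 to 0.0625). Of the 5 sensor genes 3 were lower, 0 higher and 2 did not pass, beside 20.7% lower and 5.21% higher among all probes. Their median change was -0.34, beside -0.06 over all probes. After median centring or quantile normalization CML42 was the 1 that was higher and 2 were lower.

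All 5 measured chaperone genes fell, as deposited and under both other scalings, with a median change of -0.68 beside -0.06 over all probes. The list was chosen with earlier results known, and its share of lower genes stands beside 20.7% of all probes. AT3G09440, a cytosolic HSP70, read 5.42, 4.74 and 4.93 in wild type at 30 min and 3.63, 3.61 and 3.80 at 3 h. In mpk11 it read 4.31, 4.33 and 4.52, then 3.77, 3.81 and 3.78. The 6 arrays at 3 h lay close together, below all those at 30 min, and the wild-type arrays at 30 min were higher than the mpk11 ones. AT3G09440 fell by 0.98 (SE 0.11; adjusted p = 5.11e-07).

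The other chaperone genes fell by less. AT5G48570, an FKBP-type immunophilin with a peptidyl-prolyl isomerase domain, went from 3.27, 2.48 and 2.89 to 2.11, 1.70 and 2.18 in wild type and from 2.73, 2.50 and 2.54 to 2.44, 1.56 and 2.14 in mpk11, a fall with no overlap (-0.72, SE 0.11; adjusted p = 5.97e-05). The small heat shock protein gene AT2G29500 fell by 0.68 (SE 0.13; adjusted p = 0.000479), lower in 5 of 6 pairs. BIP1, the HSP70 of the endoplasmic reticulum, fell by 0.61 (SE 0.12; adjusted p = 0.000628) and was lower in 5 of 6 pairs, mpk11 set 3 being the exception. Hsp70-2 (AT5G02490), another cytosolic HSP70, fell by 0.56 (SE 0.13; adjusted p = 0.00216), but set 1 held much of this: without it the change was -0.31 (adjusted p = 0.103). Cytosolic HSP70 genes are near-identical copies, so which of them a probe reads is uncertain.

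Each of the 5 chaperone genes had a larger fall in wild type than in mpk11 and a higher mean in wild type at 30 min. Both traits rest on the same wild-type arrays at 30 min, and the share of all probes that had them was not counted. In wild type all 5 were lower and in mpk11 3 were, beside 13.7% and 13.4% of all probes. The wild-type and mpk11 changes were -1.35 and -0.60 for AT3G09440 and -0.92 and -0.30 for BIP1. The difference between genotypes was 0.75 for AT3G09440 (95% interval 0.295 to 1.196) and 0.61 for BIP1 (0.11 to 1.12). It passed for neither (limma adjusted p = 0.626 for both, over all probes).

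**Figure D3:**
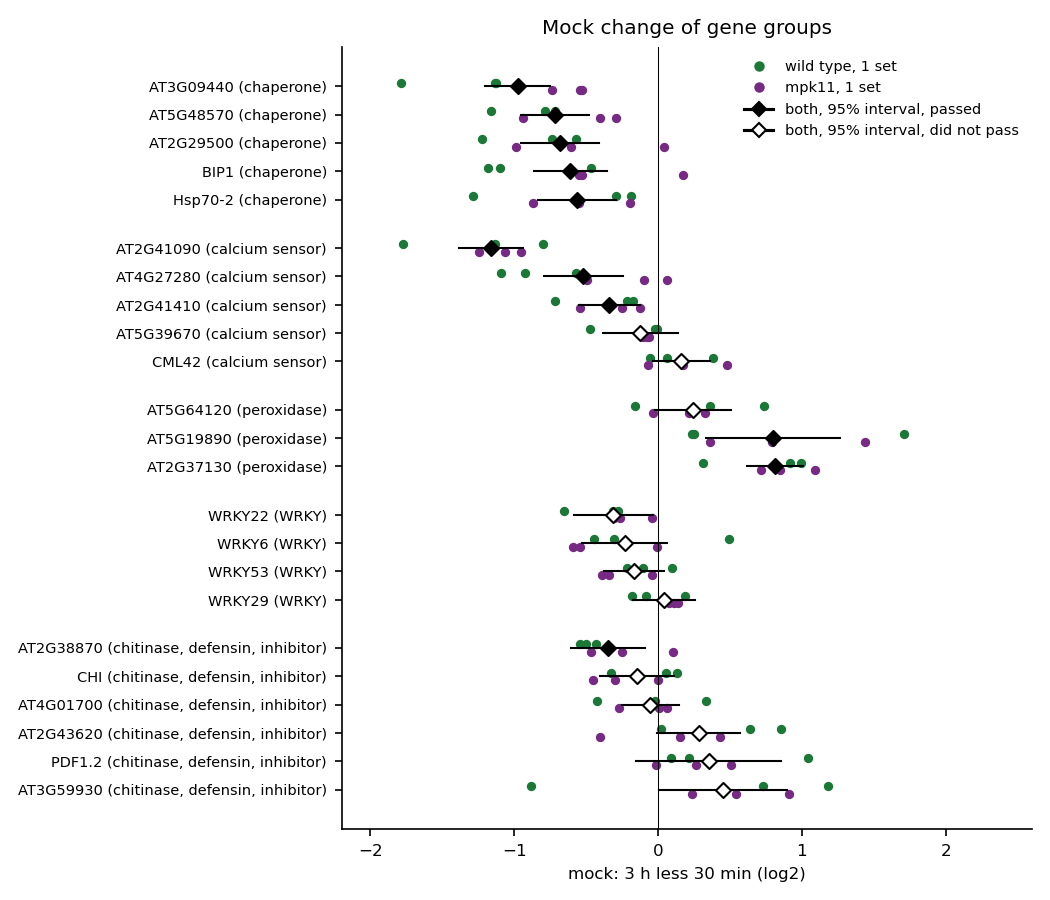
The mock change (3 h less 30 min, log2) is plotted for each measured gene of 5 groups, with green and purple dots for each set of wild type and mpk11 and a diamond with its 95% interval for both genotypes together, filled where the gene passed. All 5 chaperones and 3 of 5 calcium sensors lie below 0 with filled diamonds, AT2G37130 and AT5G19890 lie above 0, and no WRKY gene passed.

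Other genes that fell in 6 of 6 pairs were of mixed function. EXO (AT4G08950), which promotes cell expansion and responds to brassinosteroid, fell by 0.89 (SE 0.12; adjusted p = 4.11e-06). AT1G76960 fell by 0.79, the glutathione transferase gene GSTF3 by 0.73 and AT2G26690, of the NPF family of nitrate and peptide transporters, by 0.73 (adjusted p from 3.08e-05 to 0.000133). EXO did not overlap between the times, and the other 3 did.

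Genes of metabolism and transport were among the smaller falls. GTR1, a glucosinolate transporter, fell by 0.68 and SDH1-1, the flavoprotein subunit of mitochondrial succinate dehydrogenase, by 0.55 (both adjusted p = 0.000628), neither with overlap. The vacuolar invertase gene AT1G62660 fell by 0.44 (adjusted p = 0.000628), and the berberine bridge enzyme-like gene AT2G34810 by 0.51 (adjusted p = 0.00119). AT1G27100 fell by 0.44 (adjusted p = 0.000437), and by 0.30 without set 3 (adjusted p = 0.0612). SIR, the sulphite reductase of sulphate assimilation, fell by 0.58 (adjusted p = 0.0071) but went to -0.34 without set 1, where wild type at 30 min read 6.14 against 4.83 and 4.97 in the other sets. Its call was lost after median centring (adjusted p = 0.055) and without set 2 (0.085). LHCB4.3, an antenna protein gene of photosystem II that no list held, fell by 0.54 (adjusted p = 0.000795). It was named after its value was seen.

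Early flagellin-response genes showed no change that passed in mock. Of the 5 markers chosen, 4 were measured: STZ differed by 0.09 (adjusted p = 0.621), WRKY53 by -0.17 (0.281), WRKY29 by 0.04 (0.822) and WRKY22 by -0.31 (0.097). STZ, a zinc-finger factor, read from 1.94 to 2.68 at 30 min and from 2.23 to 2.76 at 3 h, so the times overlapped. With the mock arrays alone in the model WRKY22 passed (adjusted p = 0.0324). Of the 3 measured genes of the touch and handling list, which shares STZ and WRKY53 with the flagellin list, AT4G27280 was lower and the others did not pass.

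The other gene groups had few calls, at shares to be read beside 20.7% lower and 5.21% higher among all probes. Among 6 chitinase, defensin and proteinase inhibitor genes 1 fell (AT2G38870, by 0.35; adjusted p = 0.0398) and 5 did not pass. That call was lost after median centring (adjusted p = 0.248) and quantile normalization (0.186), without set 2 (0.144), without set 3 (0.244) and without any of 8 single arrays (0.0632 to 0.127). Under both other scalings 2 others, AT2G43620 and AT3G59930, were higher. Of 7 UDP-glycosyltransferase genes 2 fell, a share near that of all probes: UGT76B1 by 0.35 (adjusted p = 0.0131) and the auxin glucosyltransferase gene IAGLU by 0.32 (adjusted p = 0.0192), and neither passed after median centring (adjusted p = 0.181 and 0.212), after quantile normalization (0.0874 and 0.108) or without set 2 (0.235 and 0.21). UGT76B1 also did not pass without set 1 (0.129), nor IAGLU without set 3 (0.197) or without the wild-type array of set 2 at 30 min (0.0784). UGT85A2 was higher after quantile normalization (0.38, adjusted p = 0.0317). Vesicle traffic (8 genes), aspartyl protease (4), histone H3 and tubulin (4) and receptor-like kinase genes (4) had 0 calls. The elongation factor gene AT5G60390, often used as a constant reference, differed by -0.06 (adjusted p = 0.797), and the cold-regulated gene COR47 by 0.11 (adjusted p = 0.34). COR47 was higher after median centring (0.26, adjusted p = 0.0372) and after quantile normalization (0.24, adjusted p = 0.0185).

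Of the respiratory chain genes 1 of 6 fell (SDH1-1) and 5 did not pass, and of the other oxidoreductases 1 of 9 fell (AT2G34810), beside 20.7% of all probes. After median centring 2 of each list were higher and 1 lower, the higher ones being AT2G33220 and AT4G37830 of the respiratory chain and AT2G36690 and AT4G39830 of the oxidoreductases. After quantile normalization AT2G33220, AT2G36690 and AT4G38540 were higher. Of the 5 glycoside hydrolase and lipase genes AT1G62660 fell. Of the 3 heavy-metal-domain genes AT2G36950 fell by 0.26 (adjusted p = 0.0367), a call lost without the set block (adjusted p = 0.0516), under both other scalings, without any 1 of the sets (adjusted p from 0.13 to 0.16) and without any of 8 single arrays (0.0526 to 0.11).

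The unnamed probes held the greatest changes. Probe 211 read 4.34, 4.41 and 4.16 in wild type at 30 min and 6.83, 8.17 and 7.09 at 3 h, and in mpk11 it went from 2.78, 4.52 and 3.68 to 6.98, 7.70 and 6.95. It rose by 3.30 (SE 0.17; adjusted p = 4.09e-12), and mpk11 of set 1 was again the lowest array at 30 min. Probe 516 went from 4.50, 4.67 and 4.81 to 2.71, 2.19 and 2.68 in wild type and from 5.37, 4.31 and 4.75 to 2.54, 1.93 and 2.50 in mpk11. It fell by 2.31 (SE 0.12; adjusted p = 4.18e-12), with mpk11 of set 1 the highest array at 30 min. Probe 164 rose by 2.57 and probe 225 fell by 1.92. None of these 4 overlapped between the times.

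The genotypes were then compared. In wild type 91 probes changed (15.8%), 12 higher (2.08%) and 79 lower (13.7%). In mpk11 101 changed (17.5%), 24 higher (4.17%) and 77 lower (13.4%). Of the higher probes 8 were shared, which is 66.7% of those of wild type and 33.3% of those of mpk11. Of the lower probes 55 were shared, 69.6% and 71.4%, and 0 probes were called in opposite directions. The counts per genotype rested on few arrays: for mpk11 59 probes passed without its set 1 array at 30 min, 65 without its set 1 array at 3 h, 67 without its set 3 array at 30 min, 45 without set 1 and 31 without set 3. For wild type 54 passed without set 2, 53 without set 3 and 34 with only the wild-type mock arrays in the model.

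The difference of the change between mpk11 and wild type passed for 0 of 576 probes (0%) in limma, with 40 at an unadjusted p under 0.05 and a smallest adjusted p of 0.626. The interval of this difference, which is not adjusted for the number of probes, had a median half-width of 0.46. A call rested on the adjusted p, and none of the 40 probes with an unadjusted p under 0.05 passed. Differences of about 0.46, and larger ones, could therefore be missed for a typical probe. Across the 576 probes Pearson's r between the genotypes' changes was 0.773 and Spearman's rho 0.518, as a description, since probes share arrays and sets and are not independent.

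**Figure D4:**
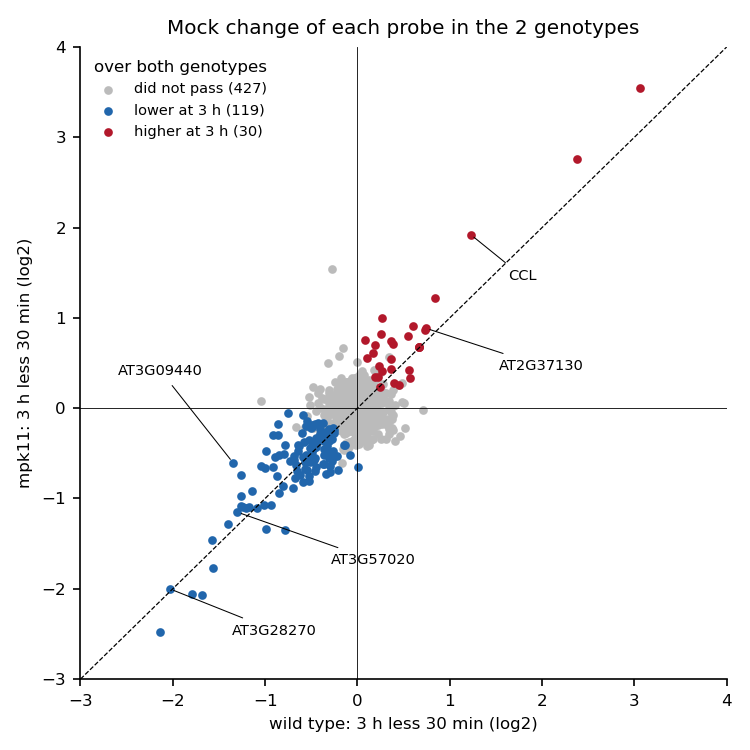
Each point is 1 of 576 probes, with its mock change (3 h less 30 min, log2) in wild type on the horizontal axis and in mpk11 on the vertical axis, coloured where it passed over both genotypes. Points scatter about the dashed line of equal change (Pearson's r 0.773, Spearman's rho 0.518), and AT3G09440 lies to the left of that line, at -1.35 in wild type and -0.60 in mpk11.

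Besides AT3G09440, the named genes with the smallest p for the genotype difference were AT2G32150, AT1G64710, AT4G27280 and ATU2AF65A. AT2G32150, a hydrolase gene of the haloacid dehalogenase superfamily, changed by -0.75 in wild type (adjusted p = 0.00654) and by -0.05 in mpk11 (adjusted p = 0.883). Over both genotypes it fell by 0.40 (adjusted p = 0.0252), a call lost under both other scalings (adjusted p = 0.147 and 0.135), without the set block (0.0516), with the mock arrays alone (0.0671), without set 2 (0.221), without set 3 (-0.19, adjusted p = 0.469) and without any of 7 single arrays (0.0512 to 0.0951). AT4G27280 changed by -0.86 in wild type (adjusted p = 0.00252) and by -0.18 in mpk11 (adjusted p = 0.562). For the alcohol dehydrogenase-like gene AT1G64710 the values were -0.31 and 0.17, and for the splicing factor gene ATU2AF65A 0.26 and -0.34, none of which passed within a genotype. The difference had an adjusted p of 0.626 for each of these 4, so none is shown to differ between the genotypes.

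The same interval in the 12 flg22 arrays, which share no array with the mock comparison but share its set numbers, shows which mock changes also took place with the peptide. With flg22 327 probes changed (56.8%), 162 higher (28.1%) and 165 lower (28.6%). Of the 30 probes higher in mock 19 were also higher with flg22, which is 63.3% of the mock list and 11.7% of the flg22 list, 2 were lower and 9 did not pass. Of the 119 lower in mock 72 were also lower with flg22, 60.5% and 43.6% of the lists, 23 were higher and 24 did not pass. The difference between the flg22 change and the mock change, tested directly, passed for 257 of all probes (44.6%). In it the flg22 change was higher for 26% of all probes and lower for 18.6%. The difference passed for 18 of the 30 and 66 of the 119. Those probes were chosen by their mock change, which is part of this difference, so these 2 counts cannot be weighed against the 44.6%. Array medians differed between the treatments, from 4.02 to 4.17 with flg22, but moved little over time within flg22.

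The named genes with the largest mock changes in each direction were set beside flg22. CCL changed by 1.43 with flg22 against 1.57 in mock, a difference of -0.14 (95% interval -0.71 to 0.43; adjusted p = 0.737). AT3G28270 changed by -1.91 against -2.02 (difference 0.11, -0.37 to 0.59), and AT2G41090 by -1.12 against -1.16 (difference 0.05, -0.27 to 0.36). AT3G57020 changed by -1.004 against -1.23 (difference 0.22, -0.07 to 0.51), and the unnamed probe 516 by -2.27 against -2.31 (difference 0.04, -0.31 to 0.39). Of the 24 probes that changed by at least 1 in mock the difference passed for 8 and did not for 16, and 2 of the 8, both unnamed here, were called in the opposite direction with flg22. For the 5 described here the difference did not pass, and their intervals leave room for differences of up to 0.71 in size.

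Other genes parted. AT2G37130 rose by 0.81 in mock and changed by 0.18 with flg22 (adjusted p = 0.113), a difference of -0.63 that passed (adjusted p = 0.000437), whereas the peroxidase gene AT5G19890 rose by 1.57 with flg22 (difference 0.77, adjusted p = 0.0536). Of the 5 chaperones, which all fell in mock, 2 rose with flg22 (BIP1 by 1.12 and AT3G09440 by 0.31), AT2G29500 fell by 0.42 and 2 did not pass. Among all probes 28.1% rose and 28.6% fell with flg22. The difference passed for 4 of the 5, beside 44.6% of all probes, but the list was chosen with earlier results known. The flg22 groups of AT3G09440 had means of 4.91 ± 0.13 and 5.16 ± 0.32 in wild type and 4.55 ± 0.22 and 4.91 ± 0.20 in mpk11 (30 min, then 3 h; SD, n = 3), against mock values of at most 3.81 at 3 h.

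Another 5 named genes were called in opposite directions. GSTF3, AT2G38870, UGT76B1 and IAGLU fell in mock and rose with flg22, by 0.31, 3.40, 0.45 and 1.13, and AT3G18050 rose in mock and fell with flg22 by 0.64. The mock calls of AT2G38870, UGT76B1 and IAGLU were those lost under both other scalings, and that of AT3G18050 was lost without the set block. EXO fell with and without the peptide, by 3.12 with flg22 and by 0.89 in mock (difference -2.22), from a level of 8.17 ± 0.11 in flg22-treated wild type at 30 min against 5.46 to 6.03 in mock wild type at that time.

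**Figure D5:**
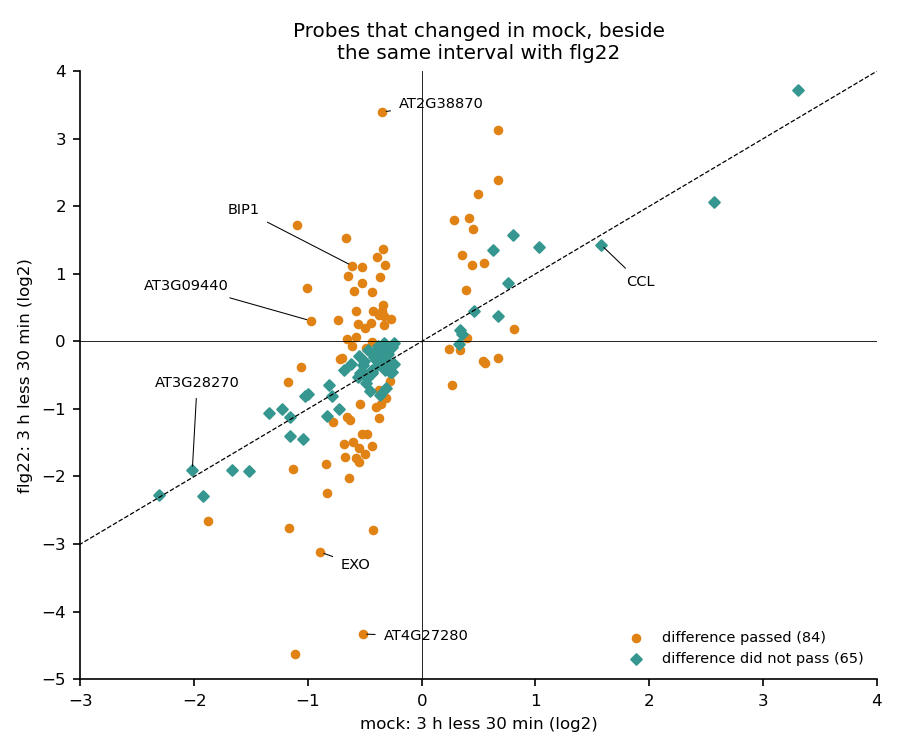
Each point is 1 of the 149 probes that passed in mock, with its mock change (3 h less 30 min, log2) on the horizontal axis and its change with flg22 over the same interval on the vertical axis, as circles where the difference between the changes passed and diamonds where it did not. CCL and AT3G28270 lie near the dashed line of equal change, while BIP1, AT3G09440 and AT2G38870 lie in the upper left, lower in mock and higher with flg22.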

How the data were processed

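Leaf RNA was labelled with Alexa555 and hybridised to a spotted array, and a Cy5-labelled oligonucleotide was used to find spots of poor quality, per the labels. The authors deposited 1 log value per probe and array, taken as log2. How these were scanned, corrected for background and normalized, and to which base, is not given in the sources used here. Values ran from 0.45 to 11.4 with 0 missing, and a mock array held from 311 to 405 distinct values. The labels do not call the sets separate cultures or experiments: p-values therefore reflect the spread among these arrays alone, part or all of which may be technical.

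The main fit was limma 3.58.1 (R 4.3.3): 8 group means over all 24 arrays, the set number as a block, empirical Bayes moderation (prior degrees of freedom 6.45, residual 14) and Benjamini-Hochberg adjustment over 576 probes within each comparison. No probe was filtered. The fit was tested on simulated data. Of 181 genes 180 matched RefSeq names (TAIR10.1). Mock arrays at 3 h and 30 min of the same genotype and set had correlated deviations from their group means in mpk11 (3 of 3 over 0.1). In wild type they did not throughout (over all 6 from -0.03 to 0.578, median 0.229, 4 over 0.1). The numbers thus pair the 2 times in mpk11 but are not shown to within wild type. Over any 2 mock groups, across genotypes as well, 15 of 18 same-set correlations were over 0.1 (from -0.03 to 0.604, median 0.275). Without the block 118 probes passed, all among the 149. No array duplicated another.

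The part studied and its gene lists were chosen with earlier results of these data known. Genes were named by a rule: the 15 greatest rises and the 15 greatest falls in mock among named probes that passed and had 1 direction in 6 of 6 pairs (5 rises qualified), the 5 with the smallest p for the genotype difference, and up to 4 examples of each list. The results were recomputed after quantile normalization or median centring, without the dimmest 25% of probes, with a trended robust prior, with 4 treatments of the set and of the arrays fitted, and without each mock array or set in turn. Promoter motifs were not analysed here, since no sequence table was used.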

Additional observations from a re-analysis of the deposited data

Results flagged for a closer look

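The change from 30 min to 3 h differed between flg22 and mock by a direct test (limma adjusted p under 0.05) for 257 of all probes (44.6%) and for 76 of the 181 probes with a gene. Of the 79 genes chosen by the naming rule, some of them for their mock change, 39 were among them. Their difference of changes is given here in log2, flg22 less mock. In 19 of the 39 the flg22 change was the higher and in 20 the lower. Groups of 3 arrays are too small for the test of single arrays far from the rest, so none was applied.

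Among defence proteins the difference was 4.02 for AT2G43620, 3.75 for AT2G38870 and 2.70 for AT5G64120. Among transcription factors it was 1.70 for WRKY29, -2.50 for STZ, -1.28 for WRKY53 and -0.99 for WRKY22. Among calcium sensors it was -3.81 for AT4G27280 and -0.42 for CML42. Among chaperones it was 1.73 for BIP1, 1.28 for AT3G09440, 0.83 for Hsp70-2 and 0.45 for AT5G48570. Of the peroxidase genes AT2G37130 differed by -0.63 and AT5G64120, given above among defence proteins, by 2.70. The glycosyltransferase genes UGT74B1, IAGLU and UGT76B1 differed by 1.80, 1.45 and 0.79.

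The heavy-metal-domain genes AT5G52760 and AT5G60800 differed by -2.59 and -2.06, and EXO by -2.22. The oxidoreductase genes AT4G38540, AT2G36690 and AT1G64710 differed by 1.40, 0.69 and 0.32. GSTF3 differed by 1.05, SIR by 0.64 and GTR1 by -1.03. The aspartyl protease gene AT3G51330 differed by 1.05, the lipase gene AT3G16370 by -1.004 and the traffic gene AT2G34250 by 0.66. The kinase genes AT1G11050 and AT3G09010 differed by -0.94 and 0.40. AT1G27100 differed by -1.11, AT3G18050 by -0.91, COR47 by -0.65 and AT2G32150 by -0.57. The histone gene AT1G09200 differed by -0.75, the translation genes AT2G37190 and AT3G12390 by -0.83 and -0.70 and the respiratory gene AT4G37830 by -0.51.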

How the results depend on the processing

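Of the mock changes over both genotypes of the genes named by the rule, 0 that passed reversed under any alternative run. The count over both genotypes (149) was 118 with no replicate block, 146 with a replicate block of set within genotype, 147 with a random replicate block (correlation 0.24), 124 with the mock arrays alone, 137 without the dimmest probes (432 kept) and 148 with a trended robust prior, and from 89 to 142 when an array or a set was left out. Higher and lower probes (30 and 119) became 69 and 73 after median centring and 66 higher after quantile normalization, and ran from 17 to 35 and from 72 to 115 when an array or a set was left out. The wild-type count (91) was 34 with only the wild-type mock arrays in the fit and from 53 to 99 when arrays or sets were left out. The mpk11 count (101) ran from 31 to 108 when they were left out. The cause was not tested. The count of genotype differences stayed at 0 under every alternative run. The count of differences between the flg22 and mock changes (257) was 248 after median centring, 258 after quantile normalization and 217 with no replicate block. It ran from 195 to 264 when an array or a set was left out. The differences of single genes between flg22 and mock were not recomputed in these runs. Of the 32 genes named by the rule that passed, 17 passed under every alternative that kept their probe. AT5G48570 and GTR1 are among these 17, and their probes were dropped with the dimmest ones. Without the replicate block, AT3G18050, AT2G32150 (adjusted p = 0.0516), AT2G38870 (0.06) and AT2G36950 no longer passed, and of the named genes no other call changed. Spot background was not analysed here, so what signal limits is unknown.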
